A study of Mus musculus with 7 samples.

Results

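The comparison set PanMeso cells recovered from CT1BA5 tumours against the same cells recovered from BMFA3 tumours, across all genes, and used 4 of the 7 RNA sequencing libraries of the series. PanMeso cells are a mesothelial line from mouse pancreas, marked with enhanced green fluorescent protein (eGFP). They were injected into the pancreas together with the pancreatic cancer cells CT1BA5 or BMFA3, and eGFP-positive cells were sorted from the tumours that formed, giving 2 CT1BA5 libraries and 2 BMFA3 libraries. The remaining 3 libraries were parental PanMeso cells from culture, which serve here as a reference level only. All 3 groups carry the eGFP mark. Per the labels, the cells of every group had been grown at 33 °C in a HEPES-buffered medium with epidermal growth factor, hydrocortisone and insulin, and were moved to 37 °C for 3 days before use. The labels do not say whether the libraries of a group came from separate tumours, animals or cultures, so p-values measure only the spread between these libraries, which may be technical. Each tumour type was made with 1 named cancer cell line, so a difference between the lines cannot be told apart from a difference between the particular tumours.

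The mesothelium is the thin cell sheet on the surface of the body cavities and of internal organs. In tumours its cells can turn into cancer-associated fibroblasts (CAFs), the matrix-producing cells of the stroma. A myofibroblast-like form of these cells is driven by transforming growth factor beta (TGF-beta), which acts through SMAD transcription factors and turns on contractile and matrix genes. An inflammatory form is driven by interleukin-1 and tumour necrosis factor through NF-kB, and by interleukin-6 family cytokines through STAT3, and secretes chemokines and acute phase proteins. The same cells can present antigen on MHC class II molecules.

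The libraries held 14327365 to 16981596 counts in CT1BA5 cells, 14792189 to 16501058 in BMFA3 cells and 10096839 to 19210598 in parental cells. Levels are given as CPM, counts relative to library size, with library sizes scaled by TMM, a method that sets the typical gene at no change. Across genes, which are not independent of each other, log2 CPM correlated at 0.989 between the CT1BA5 libraries and at 0.991 between the BMFA3 libraries, against 0.941 to 0.949 for a CT1BA5 with a BMFA3 library. For the median gene, the CT1BA5 libraries differed from each other by 4.69 times the variance of sampling noise and the BMFA3 libraries by 2.19 times. As a mean over genes, with library sizes not scaled by TMM, the order was the other way round, at 20.2 times in CT1BA5 and 27.2 times in BMFA3 cells. Such a mean can rest on few genes. The gene CT010467.1 stood at 11133 and 502 CPM in BMFA3 replicates 1 and 2. In CT1BA5 replicates 1 and 2 it stood at 5416 and 274 CPM, and in parental cells at 245 to 8025 CPM. Its part in the 2 means was not tested. The libraries also differed in how the level of a gene went with its transcript length. Genes were put in 5 equal bins by transcript length, and the median log2 CPM of the shortest bin minus that of the longest, relative to the mean library, was 0.349 and 0.684 in CT1BA5 replicates 1 and 2, against -0.137 and -0.151 in BMFA3 replicates and -0.303 to -0.174 in parental replicates. CT1BA5 replicate 2 stood farthest from the others, and the part of RNA quality or library preparation in this was not tested.

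The check of the cells' identity rested on markers of other cell types. Ptprc of leukocytes, Cpa1 of acinar cells, Ins2 of islets, Hbb-bs of erythroid cells and Adipoq of adipocytes had 0 counts in every library. Epcam, a marker of epithelial tumour cells, stood at 0.259 and 0.389 CPM in CT1BA5 and 0.122 and 0.0663 CPM in BMFA3 cells. Of 20 markers of pancreatic tumour epithelium, 9 passed the filter on low counts. Of these 4 were higher and 4 lower (88.9% called, against 50.8% of all genes tested). The largest log2 fold change, 4.53, was that of Cldn4, with 26 counts in CT1BA5, 1 in BMFA3 and 3 in parental cells. The 20 markers summed to 263 and 284 CPM in CT1BA5, 369 and 371 CPM in BMFA3 and 1498 to 1635 CPM in parental cells. The summed level of 20 macrophage markers was 40.4 and 41.4 CPM in CT1BA5 and 44.3 and 42.1 CPM in BMFA3 cells. In parental cells it was 27.5 to 34.5 CPM. Of the 7 that passed the filter on low counts, 2 were higher and 3 lower. They included Fcer1g, with 25 counts in CT1BA5, 0 in BMFA3 and 5 in parental cells. Another was Mpeg1, with 3 counts in CT1BA5, 51 in BMFA3 and 113 in parental cells. Mpeg1 and a part of the summed level of macrophage markers were thus also found in parental cells from culture. In libraries of sorted cells, fewer cells of a kind and less RNA per cell cannot be told apart. Mesothelin (Msln), a surface protein typical of the lineage, stood at 400.1 and 419 CPM in CT1BA5 cells, against 631 and 617 CPM in BMFA3 cells, and at 4920.2, 5098 and 5259 CPM in parental cells.

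Of 13784 genes tested, 3521 were higher (25.5%) and 3487 were lower (25.3%) in CT1BA5 than in BMFA3 cells, or 50.8% in all (edgeR quasi-likelihood test, Benjamini-Hochberg adjusted p below 0.05). Most of these differences were small, with a median absolute log2 fold change of 0.60 among the genes called. A change of more than 2-fold was called for 370 genes higher (2.68%) and 505 lower (3.66%) in CT1BA5 cells, 6.35% of those tested. The libraries of the groups did not overlap for 74.5% of genes tested, so separation alone marks no gene out. Counts of list members given below are likewise to be read against the 25.5% higher and 25.3% lower among all genes tested. The median log2 fold change over all genes tested was -0.0061. With scaling by total counts alone this median shifted to -0.16 and the calls split as 2371 higher and 4740 lower, so small changes depend on the choice of scaling and changes are given relative to the TMM centre.

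**Figure D1:**
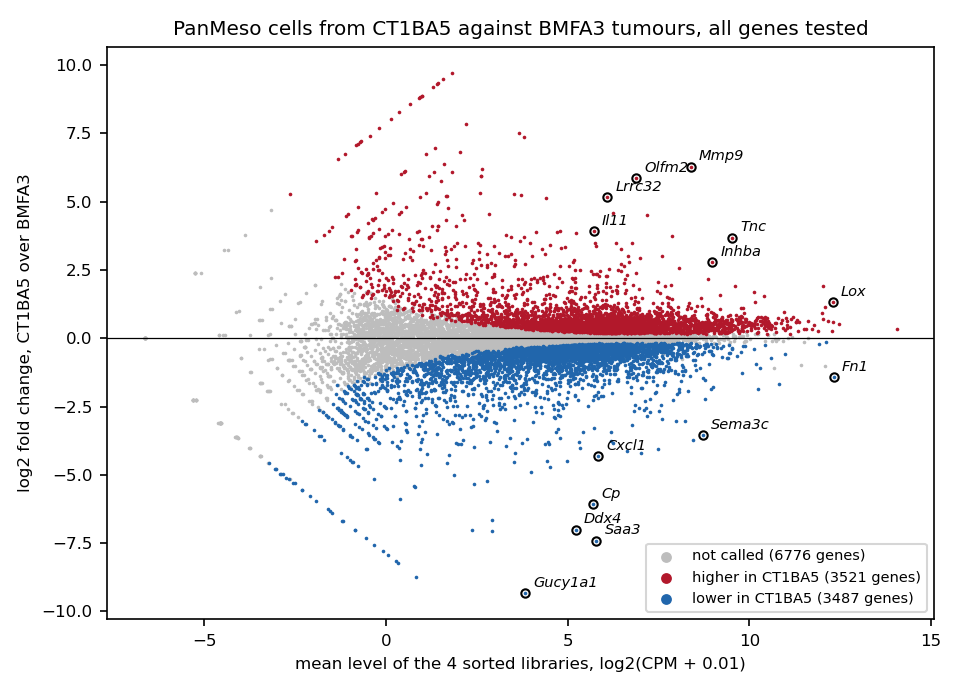
Log2 fold change of CT1BA5 over BMFA3 cells (vertical axis) against the mean level in the 4 sorted libraries (horizontal axis, log2 of CPM plus 0.01) for all 13784 genes tested. Points above 0 in red are the 3521 genes called higher in CT1BA5 cells and points below 0 in blue are the 3487 called lower, with circles around 14 genes described in the text.

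TGF-beta signalling genes were mostly higher in CT1BA5 cells. Of 26 tested genes of the TGF-beta response list, 24 were higher, 0 were lower and 2 did not pass the test, with a median log2 fold change of 1.08. Tgfb1, a ligand of the pathway, stood at 366 and 356 CPM in CT1BA5 cells, against 92.7 and 95.9 CPM in BMFA3 cells. Its log2 fold change was 1.94 ± 0.074 (SE) and the libraries of the groups did not overlap (edgeR, Benjamini-Hochberg adjusted p = 4.73e-14). Tgfb2 and Tgfb3, the other ligands of the family, were each 3.19-fold higher. Lrrc32, which encodes GARP, a surface protein that docks latent TGF-beta, stood at 140.0 and 124 CPM in CT1BA5 cells, against 3.05 and 4.31 CPM in BMFA3 cells, and at 0.460, 0.364 and 0.540 CPM in parental cells. It was 36.1-fold higher in CT1BA5 cells (log2 fold change 5.17 ± 0.14 (SE), edgeR, Benjamini-Hochberg adjusted p = 2.05e-16). Ltbp1 and Ltbp2, matrix proteins that bind latent TGF-beta, were 2.51-fold and 2.46-fold higher.

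Several target genes of TGF-beta followed the same direction. Matrix genes did not all do so, and Fn1 and Col3a1, described below, were lower at log2 fold changes of -1.43 and -1.11. Ccn2, the connective tissue growth factor gene, stood at 1182 and 1273 CPM in CT1BA5 cells, against 327 and 332 CPM in BMFA3 cells and was 3.73-fold higher. The feedback inhibitor Smad7 was 2.57-fold higher, at 165 CPM in CT1BA5 and 64.4 CPM in BMFA3 cells, and Tgfbi, a secreted matrix protein induced by TGF-beta, 4.54-fold higher. Snai1, a repressor of epithelial genes, stood at 116 and 113 CPM in CT1BA5 cells, against 59.5 and 58.0 CPM in BMFA3 cells (1.95-fold higher), while its relative Snai2, at 11.9 CPM in CT1BA5 and 13.2 CPM in BMFA3 cells, did not pass the test.

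Activins and bone morphogenetic proteins (BMPs), relatives of TGF-beta, did not move as a block. Inhba, the subunit of activin A, stood at 953 and 801 CPM in CT1BA5 cells, against 129.9 and 126 CPM in BMFA3 cells, and at 54.3, 53.9 and 57.9 CPM in parental cells. It was 6.86-fold higher (log2 fold change 2.78 ± 0.085 (SE), edgeR, Benjamini-Hochberg adjusted p = 2.03e-15), and the activin antagonist Fstl3 was 3.64-fold higher. Inhbb, the subunit of activin B, went the other way, at 4.46 and 2.41 CPM in CT1BA5 cells, against 28.6 and 30.3 CPM in BMFA3 cells. Of 28 tested genes of activin, BMP and GDF signalling, 6 were higher and 14 lower, with a median of -0.45. Those lower included the ligands Bmp4 (2.73-fold), Gdf6 (3.55-fold) and Gdf10 (3.06-fold). The BMP target genes Id1, Id2 and Id3, inhibitors of helix-loop-helix transcription factors, were 1.56-fold, 5.45-fold and 2.08-fold lower, and Smad9, a signal transducer of BMP receptors, fell to 0.518 and 0 CPM in CT1BA5 cells, against 3.41 and 4.04 CPM in BMFA3 cells.

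The promoters of 3 genes that were far higher in CT1BA5 cells each held a copy of TGANTCA, the binding sequence of AP-1, the Fos and Jun transcription factor that acts with SMADs on many stromal genes. They are shown because these genes had large increases and the motif, and were chosen after their values were seen: Lrrc15, a surface protein of myofibroblastic CAFs, Il11, a cytokine of fibrotic tissue, and Tfpi2, a matrix-bound protease inhibitor. Sequences run from 250 bases before to 50 bases after a RefSeq transcript start on GRCm38.p6, 5′ to 3′, with the motif in capitals: Lrrc15 at chr16:30283205-30283504 on the - strand, Il11 at chr7:4778092-4778391 on the - strand and Tfpi2 at chr6:3968326-3968625 on the - strand.
Lrrc15: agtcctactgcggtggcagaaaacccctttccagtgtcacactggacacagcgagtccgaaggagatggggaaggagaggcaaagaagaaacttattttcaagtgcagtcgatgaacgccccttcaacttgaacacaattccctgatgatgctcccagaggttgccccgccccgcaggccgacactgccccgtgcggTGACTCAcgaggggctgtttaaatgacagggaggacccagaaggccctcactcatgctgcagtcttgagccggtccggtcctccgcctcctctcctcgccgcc
Il11: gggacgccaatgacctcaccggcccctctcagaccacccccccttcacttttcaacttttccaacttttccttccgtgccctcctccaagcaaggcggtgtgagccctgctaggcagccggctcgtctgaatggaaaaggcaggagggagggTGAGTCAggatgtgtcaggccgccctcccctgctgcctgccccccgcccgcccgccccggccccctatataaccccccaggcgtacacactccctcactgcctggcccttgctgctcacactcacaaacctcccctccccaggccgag
Tfpi2: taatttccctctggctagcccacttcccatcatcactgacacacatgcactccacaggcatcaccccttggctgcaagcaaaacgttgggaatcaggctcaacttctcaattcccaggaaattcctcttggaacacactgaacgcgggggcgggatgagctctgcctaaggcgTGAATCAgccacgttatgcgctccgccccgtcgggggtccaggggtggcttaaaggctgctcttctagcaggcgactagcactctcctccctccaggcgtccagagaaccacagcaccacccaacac
The motif began 53 bases before the start in Lrrc15, 98 in Il11 and 77 in Tfpi2. The table also held 1 further promoter of Il11 and 2 of Tfpi2, without a copy. Lrrc15 stood at 14.0 and 10.0 CPM in CT1BA5 cells, against 0.244 and 0.133 CPM in BMFA3 cells, and at 0.0920, 0 and 0.0981 CPM in parental cells. The CT1BA5 libraries lay well above all others, with a log2 fold change of 5.92 ± 0.41 (SE) (edgeR, Benjamini-Hochberg adjusted p = 5.28e-10). Tfpi2 stood at 137 and 157 CPM in CT1BA5 cells, against 6.64 and 5.43 CPM in BMFA3 cells (24.2-fold higher, edgeR, Benjamini-Hochberg adjusted p = 5e-16).

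Over all 13105 promoters of the 10231 tested genes found in the RefSeq table, TGANTCA on either strand was present in 5.34%. It was present in 12.9% of promoters of genes more than 2-fold higher and 8.62% of those more than 2-fold lower in CT1BA5 cells. Among all genes called, whatever the size of the change, the shares were closer to the background, at 5.81% for genes higher and 5.66% for genes lower. The SMAD sequences GTCTAGAC or CAGACA were present in 27.5% and 17.0% of the promoters of genes more than 2-fold higher and lower, in 17.4% and 15.1% of those of all genes called, and in 16.4% of all. The CArG box, bound by serum response factor at contractile genes, was present in 3.51% and 1.23% past 2-fold, in 1.73% and 1.18% of those called and in 1.33% of all. The TEAD sequence GGAATG was present in 16.4% and 11.9% past 2-fold, in 12.4% and 12.3% of those called and in 12.3% of all. These are shares of promoters that hold the letters, with several promoters for some genes, and no test was made of them. Of 26 tested AP-1 and immediate early genes, 11 were higher and 8 lower. Fosb and Egr2, both induced early after a stimulus, were 3.67-fold and 4.64-fold higher, and Fosl2, an AP-1 subunit, was 2.32-fold lower.

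Contractile genes were mostly higher in CT1BA5 cells. Of 26 tested genes of the smooth muscle contractile list, 18 were higher, 4 lower and 4 did not pass, with a median log2 fold change of 0.59. Acta2, smooth muscle actin, stood at 1634 and 1792 CPM in CT1BA5 cells, against 515 and 533 CPM in BMFA3 cells, and at 158, 154 and 151 CPM in parental cells. The 3.27-fold difference had a log2 fold change of 1.71 ± 0.073 (SE) (edgeR, Benjamini-Hochberg adjusted p = 2.72e-13). Cnn1, the contractile filament protein calponin, stood at 46.6 and 50.5 CPM in CT1BA5 cells, against 3.78 and 2.72 CPM in BMFA3 cells (14.8-fold higher), and Csrp2, a cytoskeletal LIM protein of smooth muscle, at 214 and 233 CPM in CT1BA5 cells, against 28.3 and 30.2 CPM in BMFA3 cells. Tagln, a muscle actin-binding protein, was low in both groups at 18.6 and 21.96 CPM in CT1BA5 and 6.27 and 6.96 CPM in BMFA3 cells (3.06-fold higher). Mylk, the kinase that activates smooth muscle myosin, was lower, at 0.305 CPM in CT1BA5 and 1.17 CPM in BMFA3 cells. Acta1, actin of skeletal muscle, had 264 counts in CT1BA5 and 1 count in BMFA3 cells, a ratio of 294 (95% exact interval 52.3 to 11653, counting error only). Its fitted log2 fold change of 7.85 was 10.09 without BMFA3 replicate 1 and 7.05 without BMFA3 replicate 2. Ckm, the muscle creatine kinase and a defining marker of skeletal muscle, had 0 counts in all 4 sorted libraries. Of 8 tested markers of pericytes and stellate cells, contractile cells of vessels and pancreas, 4 were higher and 1 lower. The summed level of that list was 360.3 and 327 CPM in CT1BA5 and 215 and 218 CPM in BMFA3 cells. Cspg4, the proteoglycan NG2 of pericytes, had 142 counts in CT1BA5 and 1 in BMFA3 cells, a ratio of 158 (95% exact interval 27.9 to 6288), and Pdgfrb and Mcam were also higher. Rgs5, a defining pericyte marker, was not called (log2 fold change 0.0033), and Lrat of stellate cells had 0 counts in every library. The part of such cells in the contractile result was not tested.

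**Figure D2:**
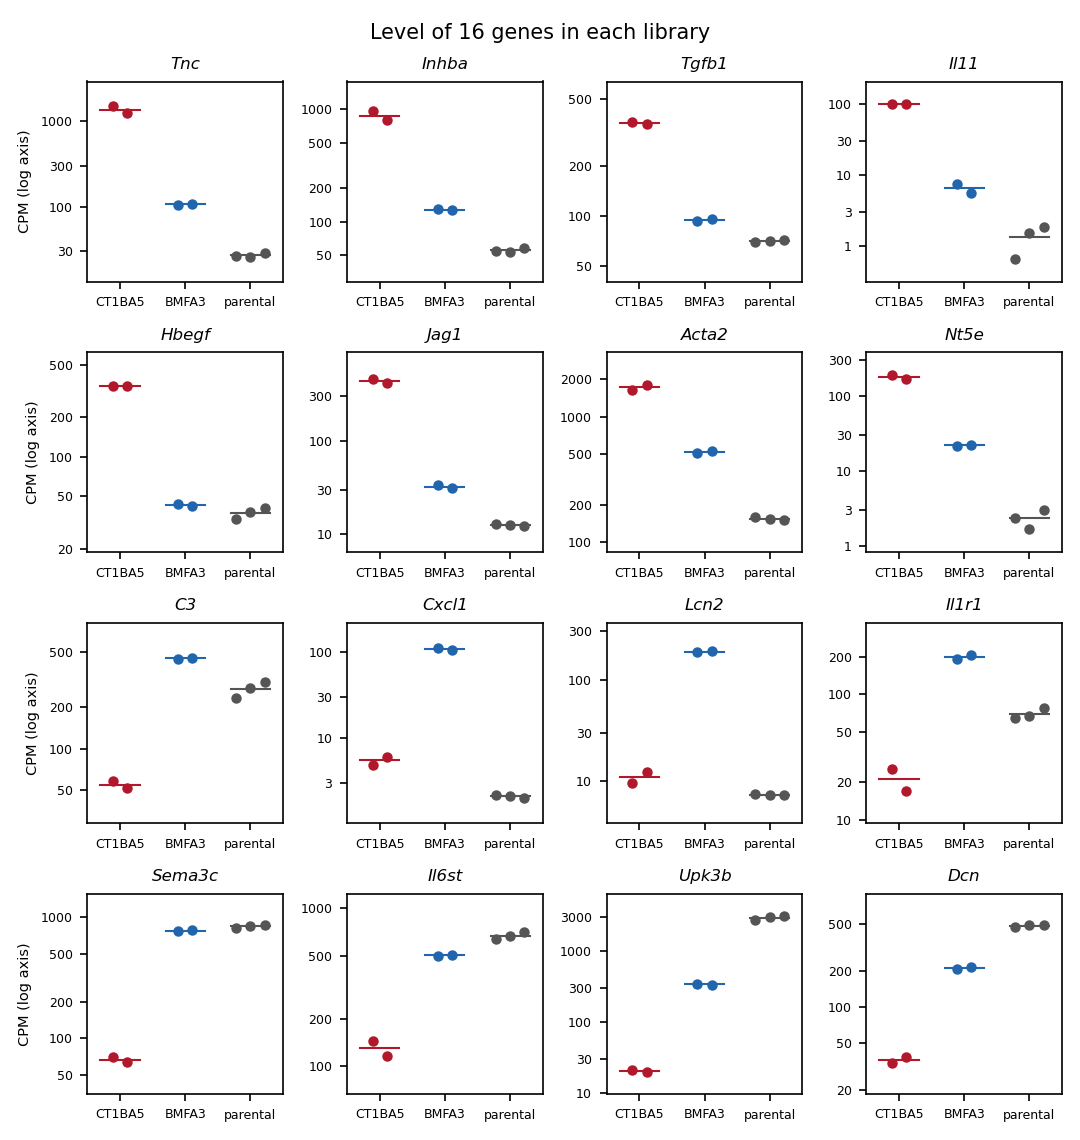
Level of 16 genes in each library (CPM, log axis), with a point for each library and a bar at the group mean. In the upper 8 panels both CT1BA5 libraries lie above both BMFA3 libraries, and in the lower 8 both lie below them.

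Fibrillar matrix genes were mostly higher in CT1BA5 cells, with 17 of 27 tested members higher and 6 lower (median 0.61). Their summed level was nevertheless lower, at 18400 and 16593 CPM in CT1BA5 and 19701 and 19468 CPM in BMFA3 cells. Col1a1, the main chain of type I collagen, stood at 5451 and 5206 CPM in CT1BA5 cells, against 2893 and 2778 CPM in BMFA3 cells. It was 1.88-fold higher (log2 fold change 0.91 ± 0.068 (SE), edgeR, Benjamini-Hochberg adjusted p = 1.55e-09), while Col3a1, the type III chain that joins it in fibrils, stood at 798 and 796 CPM in CT1BA5 cells, against 1725 and 1710.3 CPM in BMFA3 cells and was 2.15-fold lower. Col5a3, a minor chain of type V collagen, stood at 284 and 269.6 CPM in CT1BA5 cells, against 12.4 and 12.1 CPM in BMFA3 cells (22.6-fold higher, edgeR, Benjamini-Hochberg adjusted p = 1.14e-16). Type VI collagen, a filament around cells, split by chain. Col6a1 stood at 48.6 and 39.7 CPM in CT1BA5 cells, against 352 and 332 CPM in BMFA3 cells (7.73-fold lower). Col6a2 stood at 13.5 and 11.5 CPM in CT1BA5 cells, against 137 and 131 CPM in BMFA3 cells (10.7-fold lower). Another chain, Col6a3, was higher, at 6.26 CPM in CT1BA5 and 0.219 CPM in BMFA3 cells. Eln, which encodes elastin, had 201 counts in CT1BA5 and 0 in BMFA3 cells, at least 74.6-fold higher when 3 counts in the BMFA3 group are taken as the floor.

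Matricellular and cross-linking genes were also higher in the main. Tnc, the glycoprotein tenascin C of wounds and tumour stroma, stood at 1488 and 1248 CPM in CT1BA5 cells, against 105 and 108 CPM in BMFA3 cells, and at 26.4, 25.8 and 28.8 CPM in parental cells. It was 12.8-fold higher (log2 fold change 3.68 ± 0.090 (SE), edgeR, Benjamini-Hochberg adjusted p = 6.97e-17). Thbs2, a thrombospondin, stood at 106 and 90.9 CPM in CT1BA5 cells, against 9.81 and 7.89 CPM in BMFA3 cells (11.1-fold higher). Lox, the enzyme that cross-links collagen and elastin, stood at 7574 and 6796 CPM in CT1BA5 cells, against 2839.6 and 2918 CPM in BMFA3 cells (log2 fold change 1.32), and its relatives Loxl1 and Loxl2 were 3.77-fold and 2.10-fold higher. Of 25 tested genes of collagen processing, 15 were higher and 8 lower, or 15 and 5 without BMFA3 replicate 1. Fn1, the matrix glycoprotein fibronectin, stood at 3222 and 2321 CPM in CT1BA5 cells, against 7454 and 7465 CPM in BMFA3 cells, and at 2792, 2991 and 3574 CPM in parental cells. The BMFA3 libraries lay above both other groups, and the gene was 2.69-fold lower in CT1BA5 cells (log2 fold change -1.43 ± 0.11 (SE), edgeR, Benjamini-Hochberg adjusted p = 2.48e-09). Decorin (Dcn), a small proteoglycan that binds collagen and TGF-beta, averaged 36.0 ± 2.90 CPM in CT1BA5 and 213 ± 4.64 CPM in BMFA3 cells (SD, n = 2 each) and was 5.93-fold lower.

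Basement membrane genes were more often lower: 13 of 22 tested members were lower and 5 higher, with a median of -0.49. Many of these genes are long, and with a correction for transcript length the counts became 9 lower and 8 higher with a median of -0.034. Lama4, a laminin chain of vessel and muscle basement membranes, stood at 3.62 and 2.26 CPM in CT1BA5 cells, against 37.8 and 44.9 CPM in BMFA3 cells, and Nid2, a linker of laminin and collagen, at 18.3 and 15.6 CPM in CT1BA5 cells, against 51.4 and 47.7 CPM in BMFA3 cells. They were 13.8-fold and 2.92-fold lower. Col7a1, the anchoring fibril collagen, was 10.4-fold higher, at 14.3 CPM in CT1BA5 and 1.36 CPM in BMFA3 cells.

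Proteases that remodel matrix moved in both directions. Mmp9, the gelatinase B gene, stood at 672 and 646 CPM in CT1BA5 cells, against 7.55 and 9.34 CPM in BMFA3 cells, and had 0 counts in all 3 parental libraries. The 78.1-fold difference had a log2 fold change of 6.29 ± 0.11 (SE) (edgeR, Benjamini-Hochberg adjusted p = 1.53e-17). Mmp2, the gelatinase A gene, and Mmp14, which activates it at the cell surface, were 2.11-fold and 2.18-fold higher. Mmp3, stromelysin 1, stood at 8.35 and 8.72 CPM in CT1BA5 cells, against 47.9 and 52.4 CPM in BMFA3 cells (5.87-fold lower). Adamts5, a protease that cleaves aggrecan, fell to 23.5 and 17.1 CPM in CT1BA5 cells, against 90.9 and 96.6 CPM in BMFA3 cells. Adamts9, a protease of versican, stood at 1.75 and 1.56 CPM in CT1BA5 cells, against 42.4 and 45.4 CPM in BMFA3 cells (26.3-fold lower). In all, 13 of 26 tested metalloprotease and inhibitor genes were higher and 8 lower. Plaur, the urokinase receptor, was 2.78-fold higher, and Plau, urokinase itself, 1.99-fold higher. Integrin genes also went both ways, with 8 of 16 tested members higher and 7 lower and a median log2 fold change of -0.0158. Itga5, the fibronectin receptor chain, Itgb3 and Itgb5, chains of vitronectin receptors, and Itga11, a collagen receptor chain, were 2.51-fold, 2.74-fold, 2.29-fold and 8.61-fold higher. Itga7 was 2.31-fold lower, and Itgb8 had 2 counts in CT1BA5 and 105 in BMFA3 cells.

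Inflammatory CAF genes were mostly lower in CT1BA5 than in BMFA3 cells, 15 of 22 tested members against 5 higher, with a median of -1.56. The summed level of the list went the other way, at 5596 and 5448 CPM in CT1BA5 and 4828 and 4904 CPM in BMFA3 cells. Its member with the largest count, Ptgs2, described below, was higher in CT1BA5 cells. The largest log2 fold change in the list, 3.93, was that of Il11, also described below. Saa3, an acute phase serum amyloid, stood at 0.582 and 0.701 CPM in CT1BA5 cells, against 112 and 108 CPM in BMFA3 cells, and at 2.30, 1.53 and 1.67 CPM in parental cells. It was 170.4-fold lower (log2 fold change -7.41 ± 0.18 (SE), edgeR, Benjamini-Hochberg adjusted p = 4.68e-17). Lcn2, an iron-binding protein of acute inflammation, stood at 9.51 and 12.4 CPM in CT1BA5 cells, against 185 and 192 CPM in BMFA3 cells, and at 7.55, 7.28 and 7.36 CPM in parental cells, 17.3-fold lower. The CT1BA5 libraries lay below the parental ones for Saa3 and above them for Lcn2, and BMFA3 libraries lay far above both. C3, the central complement protein, stood at 58.5 and 51.8 CPM in CT1BA5 cells, against 447 and 455 CPM in BMFA3 cells, and at 231, 277 and 303 CPM in parental cells. The parental level lay between those of the tumour groups, and the 8.16-fold difference between these had a log2 fold change of -3.03 ± 0.10 (SE) (edgeR, Benjamini-Hochberg adjusted p = 1.23e-14). Of 15 tested complement genes, 9 were lower and 3 higher, the lower ones including the proteases C1s1 (2.32-fold) and C1ra (1.74-fold) and the inhibitor Serping1 (2.36-fold).

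Of 21 tested chemokine genes, 7 were higher and 8 lower (71.4% called, against 50.8% of all genes tested). Among the lower ones, Cxcl5, Cxcl3, Cxcl15 and Cxcl1, which draw neutrophils, were 4 consecutive tested genes between bases 90759360 and 90893115 of chromosome 5 (GRCm38), each more than 2-fold lower. The promoters of Cxcl1 (chr5:90890995-90891294 on the + strand) and Cxcl3 (chr5:90785851-90786150 on the + strand) are shown as examples, chosen after their values were seen, that hold the NF-kB sequence, GGG followed by any 2 bases and TTTCC, on either strand, in capitals.
Cxcl1: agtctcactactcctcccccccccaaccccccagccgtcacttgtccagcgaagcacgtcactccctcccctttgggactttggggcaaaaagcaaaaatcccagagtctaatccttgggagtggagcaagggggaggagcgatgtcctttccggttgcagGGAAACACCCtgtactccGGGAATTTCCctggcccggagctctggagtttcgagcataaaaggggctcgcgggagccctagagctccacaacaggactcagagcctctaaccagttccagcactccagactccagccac
Cxcl3: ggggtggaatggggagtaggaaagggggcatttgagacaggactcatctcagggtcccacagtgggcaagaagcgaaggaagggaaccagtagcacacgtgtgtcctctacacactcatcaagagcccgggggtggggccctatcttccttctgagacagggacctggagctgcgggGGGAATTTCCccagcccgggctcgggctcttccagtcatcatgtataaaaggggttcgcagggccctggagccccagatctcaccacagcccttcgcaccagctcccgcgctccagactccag
The motif began 89 and 71 bases before the start in Cxcl1 and 73 bases before it in Cxcl3. It was present in 1.72% of the promoters of all tested genes, 1.75% of those more than 2-fold higher and 1.85% of those more than 2-fold lower. Cxcl1 stood at 4.92 and 6.07 CPM in CT1BA5 cells, against 110.5 and 106 CPM in BMFA3 cells, and at 2.21, 2.11 and 2.01 CPM in parental cells. It was 19.8-fold lower (log2 fold change -4.31 ± 0.12 (SE), edgeR, Benjamini-Hochberg adjusted p = 6.39e-16). Cxcl5 had 2 counts in CT1BA5 and 323 in BMFA3 cells, a ratio of 145 (95% exact interval 39.8 to 1203). Its log2 fold change of -7.02 became -5.96 without CT1BA5 replicate 1 and -10.30 without CT1BA5 replicate 2. Cxcl15 had 0 counts in CT1BA5 and 75 in BMFA3 cells, at least 22.5-fold lower with 3 counts as the CT1BA5 floor. Ccl2 and Ccl7, which draw monocytes, were 2.24-fold and 1.59-fold lower. Other chemokines went the opposite way: Cx3cl1, the membrane-bound fractalkine, averaged 62.8 ± 3.21 CPM in CT1BA5 and 11.2 ± 1.18 CPM in BMFA3 cells (SD, n = 2 each), and Cxcl16, also membrane-bound, at 97.4 CPM in CT1BA5 and 52.0 CPM in BMFA3 cells.

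Of 25 tested NF-kB and interleukin-1 response genes 11 were lower, 5 higher and 9 not called (median -0.23). Il1r1, the signalling receptor of interleukin-1, stood at 25.8 and 17.2 CPM in CT1BA5 cells, against 192 and 204 CPM in BMFA3 cells, and at 65.6, 67.6 and 78.2 CPM in parental cells. It was 9.11-fold lower (log2 fold change -3.19 ± 0.13 (SE), edgeR, Benjamini-Hochberg adjusted p = 9.08e-14). Il33, an alarmin of the interleukin-1 family, stood at 3.30 and 2.02 CPM in CT1BA5 cells, against 59.5 and 62.0 CPM in BMFA3 cells, 22.3-fold lower, while Il1rl1, the gene of its receptor, stood at 203 and 186 CPM in CT1BA5 cells, against 56.5 and 56.3 CPM in BMFA3 cells and was 3.45-fold higher. Vcam1, an adhesion molecule for leukocytes, stood at 217 and 211 CPM in CT1BA5 cells, against 772 and 779 CPM in BMFA3 cells (3.63-fold lower), and Tnfaip2, a target of tumour necrosis factor, was 2.71-fold lower. The NF-kB subunits Nfkb1, Rela, Nfkb2 and Relb were not called, at log2 fold changes of -0.04, -0.08, -0.01 and -0.09. Ptgs2, the inducible cyclooxygenase of prostaglandin synthesis, went in the opposite direction, at 3925 and 3747 CPM in CT1BA5 cells, against 2427 and 2507 CPM in BMFA3 cells, and at 95.4, 98.4 and 104 CPM in parental cells (1.55-fold higher in CT1BA5 than in BMFA3 cells).

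Within the interleukin-6 family, ligands and receptors moved in different directions. Il11 stood at 97.4 and 99.3 CPM in CT1BA5 cells, against 7.31 and 5.50 CPM in BMFA3 cells, and at 0.644, 1.53 and 1.86 CPM in parental cells. It was 15.3-fold higher (log2 fold change 3.93 ± 0.15 (SE), edgeR, Benjamini-Hochberg adjusted p = 5.69e-14). Lif, leukaemia inhibitory factor, was 2.94-fold higher at 109 CPM in CT1BA5 and 37.1 CPM in BMFA3 cells. Il6 itself, at 72.1 and 82.3 CPM in CT1BA5 and 87.2 and 90.3 CPM in BMFA3 cells, did not pass the test, with a log2 fold change of -0.20 ± 0.10 (SE) (edgeR, Benjamini-Hochberg adjusted p = 0.115). That test was past the threshold without CT1BA5 replicate 2 (log2 fold change -0.30, edgeR, Benjamini-Hochberg adjusted p = 0.031), with total counts alone (-0.36) and with the length correction (-0.30). Il6st, the shared signalling chain gp130, stood at 145 and 117 CPM in CT1BA5 cells, against 501 and 509.6 CPM in BMFA3 cells, 3.86-fold lower. The partner chains Lifr and Osmr were 5.41-fold and 2.03-fold lower. Stat3, the transcription factor below them, was 1.58-fold lower, and its target Socs3, a feedback inhibitor, stood at 79.8 and 79.5 CPM in CT1BA5 cells, against 209.9 and 212 CPM in BMFA3 cells. Cebpd, a transcription factor induced by STAT3, stood at 92.9 and 109 CPM in CT1BA5 cells, against 431 and 402 CPM in BMFA3 cells (4.13-fold lower). In all, 9 of 19 tested members were lower and 4 higher.

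Growth factor families showed similar splits between members. Pdgfa, Pdgfb and Pdgfc, ligands of the platelet-derived growth factor receptors, were 4.03-fold, 15.1-fold and 4.17-fold higher, with Pdgfb at 51.9 and 52.5 CPM in CT1BA5 cells, against 3.78 and 3.11 CPM in BMFA3 cells. Of the receptors, Pdgfrb was 1.70-fold higher and Pdgfra 2.83-fold lower, at 18.4 CPM in CT1BA5 and 52.2 CPM in BMFA3 cells. Among ligands of the epidermal growth factor receptor, Hbegf stood at 349 and 345 CPM in CT1BA5 cells, against 43.8 and 42.3 CPM in BMFA3 cells, 8.05-fold higher (log2 fold change 3.01 ± 0.089 (SE), edgeR, Benjamini-Hochberg adjusted p = 1.16e-15). Btc, Tgfa and Ereg were 5.37-fold, 3.53-fold and 2.25-fold lower, and Areg was not called, at 7.48 CPM in CT1BA5 and 8.39 CPM in BMFA3 cells, but was called lower with the length correction (log2 fold change -0.46, edgeR, Benjamini-Hochberg adjusted p = 0.0418). The fibroblast growth factor receptors crossed, Fgfr1 at 114 CPM in CT1BA5 and 34.7 CPM in BMFA3 cells and Fgfr2 at 3.80 CPM in CT1BA5 and 15.5 CPM in BMFA3 cells. Vegfa, Vegfc and Pgf, which act on blood and lymph vessels, were 2.28-fold, 3.42-fold and 6.43-fold higher, while Vegfd and the receptor Flt4 were lower, with log2 fold changes of -2.44 and -2.32. Hgf, hepatocyte growth factor, and Met, its receptor, were 9.30-fold and 2.44-fold lower. Counted together, 15 of 42 tested genes were higher and 20 lower.

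**Figure D3:**
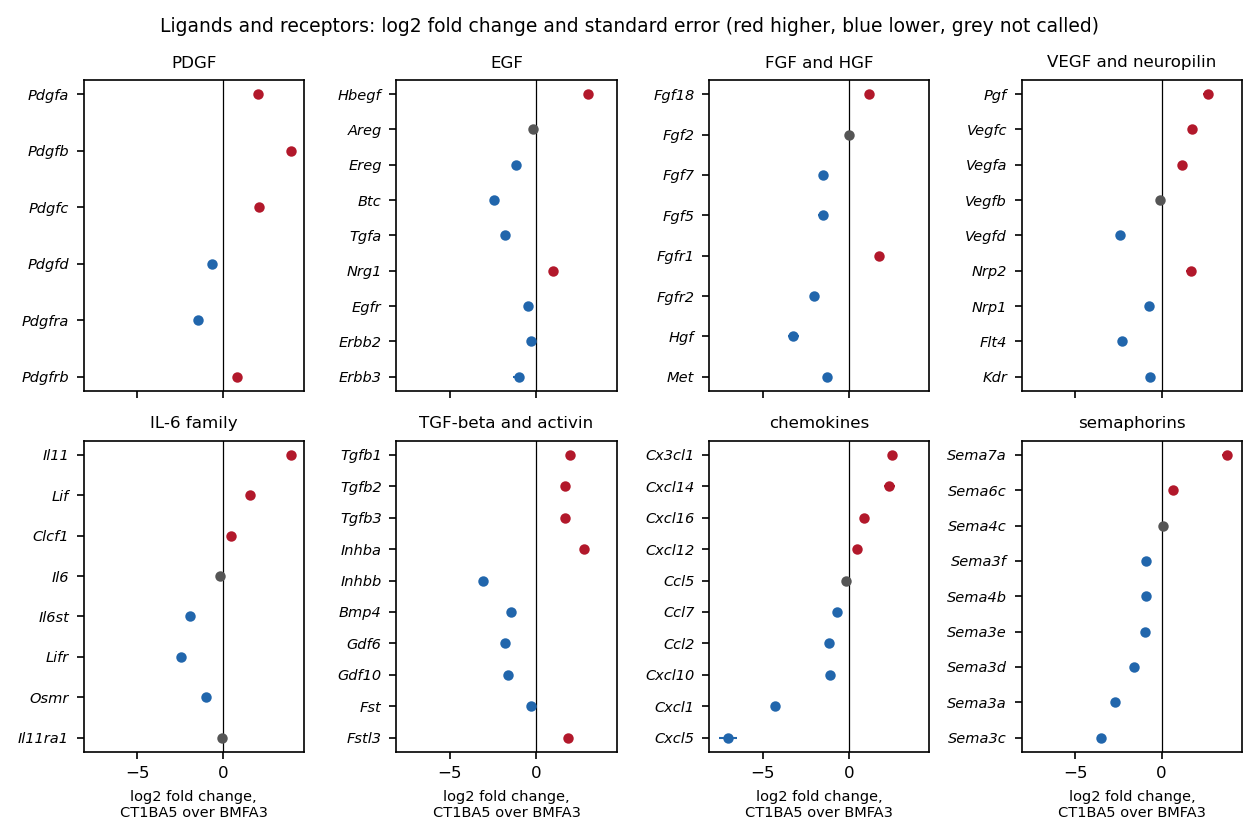
Log2 fold change of CT1BA5 over BMFA3 cells (horizontal axis) with its standard error for ligands and receptors of 8 families. Most panels hold members on both sides of 0, for example Pdgfb at 3.91 and Pdgfra at -1.50, or Il11 at 3.93 and Il6st at -1.95.

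The Notch ligand Jag1 stood at 461 and 418 CPM in CT1BA5 cells, against 33.7 and 31.1 CPM in BMFA3 cells, and at 12.8, 12.7 and 12.3 CPM in parental cells, 13.5-fold higher (log2 fold change 3.76 ± 0.087 (SE), edgeR, Benjamini-Hochberg adjusted p = 3.69e-17). Its target Hes1 was 1.66-fold higher, and Notch1 and Notch3, receptors, were not called, at log2 fold changes of 0.21 and 0.16. With the length correction these became 0.67 and 0.56 and both were called higher (edgeR, Benjamini-Hochberg adjusted p = 0.000126 and 4.15e-06). Dlk1 and Rbpj were lower, at log2 fold changes of -1.18 and -0.53. In the Notch list as a whole, 5 of 17 tested members were higher and 4 lower. The share called, 52.9%, was near the 50.8% of all genes tested. Of 33 tested genes of Wnt ligands, receptors and antagonists, 9 were higher and 12 lower, with a median of -0.16. Wnt11, Wnt9a and Wnt2, secreted Wnt ligands, were 5.77-fold, 4.81-fold and 2.82-fold higher. Another ligand, Wnt4, went the other way, at a log2 fold change of -1.51 with the length correction. Axin2, a target of the canonical Wnt pathway, was 2.43-fold lower, as were the receptors Fzd1 (2.55-fold) and Fzd4 (3.24-fold) and the antagonists Sfrp1 (5.75-fold) and Frzb (6.58-fold). Igfbp4, a secreted binding protein of insulin-like growth factors, stood at 504 and 544 CPM in CT1BA5 cells, against 1897 and 1861 CPM in BMFA3 cells (3.58-fold lower).

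Guidance cues of the semaphorin, ephrin and slit families were lower more often than higher, 24 against 12 of 48 tested. Sema3c, a secreted semaphorin, stood at 69.9 and 63.4 CPM in CT1BA5 cells, against 765 and 781 CPM in BMFA3 cells, and at 821, 847 and 855 CPM in parental cells. It was 11.6-fold lower (log2 fold change -3.53 ± 0.078 (SE), edgeR, Benjamini-Hochberg adjusted p = 1.73e-17). The BMFA3 libraries lay just below the parental ones and the CT1BA5 libraries far below both. Sema3a stood at 50.7 and 47.3 CPM in CT1BA5 cells, against 310.0 and 318 CPM in BMFA3 cells (6.39-fold lower), and Sema3d and Sema3f were 3.07-fold and 1.87-fold lower. Slit3, a ligand of Robo receptors, stood at 43.5 and 39.6 CPM in CT1BA5 cells, against 239 and 249.2 CPM in BMFA3 cells (5.87-fold lower). Sema7a, a membrane-anchored semaphorin, was higher, at 18.2 CPM in CT1BA5 and 1.31 CPM in BMFA3 cells. Sema3d and Sema3a, and Hgf and Sema3c, lie next to each other among the tested genes of chromosome 5.

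Mesothelial genes were lower in CT1BA5 than in BMFA3 cells for 21 of 30 tested members, with 4 higher and a median of -1.30. The uroplakin gene Upk3b, expressed on mesothelium, was found at 20.96 and 19.8 CPM in CT1BA5 cells, against 341 and 338 CPM in BMFA3 cells, and at 2750.1, 3039 and 3150.1 CPM in parental cells. The 16.6-fold difference had a log2 fold change of -4.06 ± 0.084 (SE) (edgeR, Benjamini-Hochberg adjusted p = 9.68e-18). Efemp1, a secreted matrix protein, stood at 50.1 and 48.3 CPM in CT1BA5 cells, against 638 and 657 CPM in BMFA3 cells, and at 2591, 2682 and 2646 CPM in parental cells, 13.2-fold lower. Both genes were lowest in CT1BA5, intermediate in BMFA3 and highest in parental cells, with no overlap. Podxl, a sialomucin of the apical surface, and Cldn15, a tight junction claudin, were 14.7-fold and 15.7-fold lower, and Podxl stood at 3.49 and 2.10 CPM in CT1BA5 cells, against 40.3 and 44.1 CPM in BMFA3 cells. Msln was 1.52-fold lower and Krt19, a keratin of epithelial sheets, 3.16-fold lower. Wt1, a transcription factor of the mesothelium, stood at 122 and 114 CPM in CT1BA5 cells, against 252 and 262 CPM in BMFA3 cells, and at 231, 256 and 269 CPM in parental cells. It was 2.18-fold lower (log2 fold change -1.12 ± 0.081 (SE), edgeR, Benjamini-Hochberg adjusted p = 8.1e-10) and the BMFA3 libraries lay within the parental range. Gata6, Meis2 and Hand2, transcription factors of the visceral mesoderm and its derivatives, were 2.45-fold, 2.96-fold and 2.35-fold lower. The members called higher were Krt7, Krt8, Pdpn and Aldh1a2. Krt7, Krt8 and Pdpn had log2 fold changes of 0.61, 0.23 and 0.20, of which those of Krt8 and Pdpn were no longer called with the length correction. Without CT1BA5 replicate 2, 1 member was called higher and 21 lower, and without either BMFA3 replicate 2 were called higher.

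Aldh1a2, which makes retinoic acid from vitamin A aldehyde, stood at 58.8 and 54.2 CPM in CT1BA5 cells, against 9.14 and 9.15 CPM in BMFA3 cells, and at 0.0920, 0.0728 and 0.147 CPM in parental cells, 6.18-fold higher (log2 fold change 2.63 ± 0.12 (SE), edgeR, Benjamini-Hochberg adjusted p = 1.3e-12). The retinoic acid binding protein Crabp2 was 10.4-fold higher, at 88.6 and 111 CPM in CT1BA5 cells, against 9.14 and 10.1 CPM in BMFA3 cells. Rdh10, which makes the aldehyde that Aldh1a2 uses, was lower, at 35.8 and 35.3 CPM in CT1BA5 cells, against 201 and 189 CPM in BMFA3 cells. Enzymes of arginine use included Nos2, inducible nitric oxide synthase, at 88.2 and 85.9 CPM in CT1BA5 cells, against 26.5 and 27.8 CPM in BMFA3 cells (3.21-fold higher), and Ass1, which regenerates arginine, at 1953 and 2093 CPM in CT1BA5 cells, against 678 and 692 CPM in BMFA3 cells (2.95-fold higher). Gucy1a1, a subunit of the nitric oxide receptor guanylate cyclase, had 1 count in CT1BA5 and 884 in BMFA3 cells, a ratio of 794 (95% exact interval 142 to 31395), against 49.2, 48.4 and 51.1 CPM in parental cells. Its log2 fold change of -9.33 was -8.35 without CT1BA5 replicate 1 and -11.75 without CT1BA5 replicate 2.

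Among 7 tested genes of class II antigen presentation, 3 were higher and 1 lower, with a median of 0.12, or -0.035 with total counts alone and -0.025 with the length correction. The share called was 57.1%, against 50.8% of all genes tested. Without CT1BA5 replicate 1, 5 were higher. H2-Ab1 (I-A beta chain) had 45.5 and 54.0 CPM in CT1BA5 cells, against 31.9 and 37.5 CPM in BMFA3 cells, a log2 fold change of 0.52 ± 0.14 (SE) (edgeR, Benjamini-Hochberg adjusted p = 0.00432), which did not pass without BMFA3 replicate 1 (log2 fold change 0.40, adjusted p = 0.0759) or with the length correction (0.22, adjusted p = 0.15). Cd74, the invariant chain, stood at 2.07 and 2.34 CPM in CT1BA5 cells, against 5.36 and 5.37 CPM in BMFA3 cells (2.44-fold lower). H2-Eb1, the I-E beta chain, was not called, at 23.6 CPM in CT1BA5 and 21.6 CPM in BMFA3 cells, nor were the class I heavy chains H2-K1 and H2-D1, at log2 fold changes of 0.01 and 0.04. With the length correction H2-K1 was called lower (-0.15, edgeR, Benjamini-Hochberg adjusted p = 0.0197). Reads can be split among near-identical class I genes, so these values are uncertain. Of 24 tested class I genes, 5 were higher and 7 lower, with a median of 0.028, or -0.13 with total counts alone and -0.097 with the length correction. The share of class I genes called, 50%, was near the 50.8% of all genes tested. Among interferon response genes 24 of 41 were lower and 6 higher (median -0.38). Oas2, an antiviral sensor, stood at 11.1 and 13.2 CPM in CT1BA5 cells, against 37.6 and 38.2 CPM in BMFA3 cells (3.14-fold lower), and Gbp2 and Iigp1, interferon-induced GTPases, were 2.10-fold and 2.48-fold lower. The transcription factors Irf1, Irf7 and Irf9 were not called, with log2 fold changes between -0.18 and -0.03, and of these Irf7 was called lower with the length correction (-0.20, edgeR, Benjamini-Hochberg adjusted p = 0.0186).

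Of 24 tested genes of ligands that act on T cells and of adenosine signalling, 12 were higher and 6 lower. Nt5e, the ectoenzyme CD73 that makes the immunosuppressive nucleoside adenosine, stood at 189 and 171 CPM in CT1BA5 cells, against 21.9 and 22.4 CPM in BMFA3 cells, and at 2.39, 1.67 and 3.04 CPM in parental cells. It was 8.13-fold higher (log2 fold change 3.02 ± 0.10 (SE), edgeR, Benjamini-Hochberg adjusted p = 1e-14). Cd40, a receptor for the T cell ligand CD154, stood at 11.1 and 13.4 CPM in CT1BA5 cells, against 0.183 and 0.133 CPM in BMFA3 cells, and had 0 counts in parental cells. Cd80, a ligand of CD28 and CTLA-4, was 1.58-fold higher at 41.2 CPM in CT1BA5 and 26.1 CPM in BMFA3 cells, and Cd274, the inhibitory ligand PD-L1, was 1.89-fold lower at 4.10 CPM in CT1BA5 and 7.81 CPM in BMFA3 cells. Spp1, which encodes osteopontin, was abundant in both groups, at 3181 and 3534 CPM in CT1BA5 cells, against 2659 and 2676 CPM in BMFA3 cells. Its log2 fold change of 0.33 (edgeR, Benjamini-Hochberg adjusted p = 0.022) did not pass without either BMFA3 replicate, without CT1BA5 replicate 2, with DESeq2, with total counts alone or with the length correction.

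**Figure D4:**
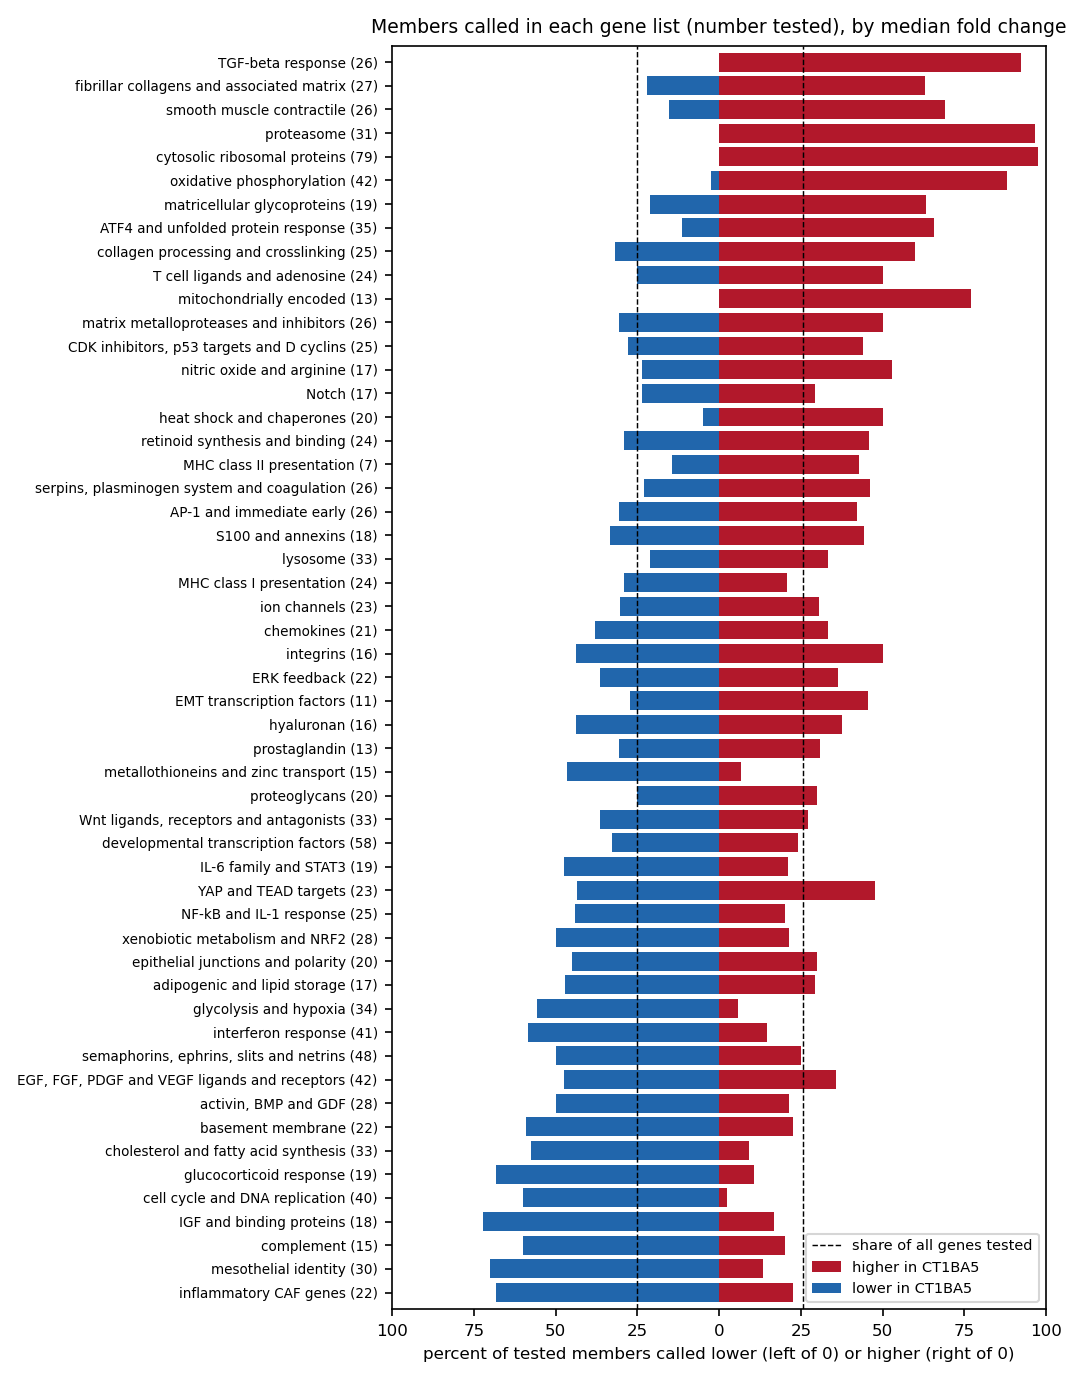
Percent of tested members of each of 53 gene lists called higher (right of 0) or lower (left of 0) in CT1BA5 than in BMFA3 cells, sorted by the median log2 fold change, with the number tested in brackets. Dashed lines mark the shares of all genes tested, 25.5% higher and 25.3% lower, which the TGF-beta, ribosomal and proteasome lists exceed on the right and the inflammatory CAF and mesothelial lists on the left.

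Genes of protein synthesis and respiration were mostly higher, by small amounts. Of 79 tested cytosolic ribosomal protein genes 77 were higher and 0 lower (median 0.56), and their summed share of counts was 8.33% and 9.60% in CT1BA5, 6.78% and 6.71% in BMFA3 and 4.28% to 4.93% in parental libraries. Of 42 nuclear genes of oxidative phosphorylation 37 were higher and 1 lower, with log2 fold changes from -0.18 to 1.11 (median 0.55). Higher too were 30 of 31 proteasome genes (median 0.56) and 10 of 13 mitochondrially encoded genes (median 0.43, range -0.28 to 0.76). These transcripts are mostly short, and calls went with transcript length over all genes. In the shortest of the 5 length bins 40.2% were higher and 7.88% lower, with a median log2 fold change of 0.31. In the longest bin 11.8% were higher and 51.6% lower, with a median of -0.35. When each library was corrected for this trend, an alternative chosen after the data were seen, 59 ribosomal protein genes were higher (median 0.28), 30 of oxidative phosphorylation (0.25), 28 of the proteasome (0.38) and 3 encoded by mitochondria (0.089). The part of RNA quality in the trend was not tested. The lists named above for TGF-beta, contractile, inflammatory CAF and mesothelial genes had medians of 1.18, 0.57, -1.54 and -1.39 with the same correction.

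**Figure D5:**
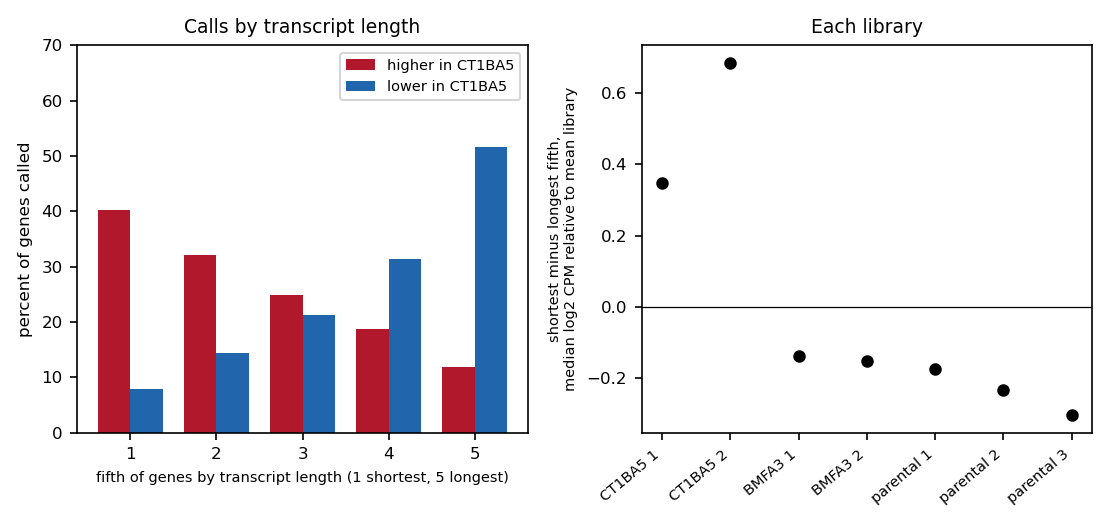
Left, percent of genes called higher and lower in CT1BA5 than in BMFA3 cells in 5 bins of transcript length, from 40.2% higher and 7.88% lower in the shortest to 11.8% higher and 51.6% lower in the longest. Right, the median log2 CPM of the shortest minus that of the longest bin for each library, relative to the mean library, where both CT1BA5 points (0.349 and 0.684) lie above 0 and all others below.

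Proliferation genes were lower in CT1BA5 cells, 24 of 40 against 1 higher, with a median of -0.65, and 22 against 2 without CT1BA5 replicate 1. Mki67, the antigen Ki-67 of cycling cells, stood at 1.55 and 1.17 CPM in CT1BA5 cells, against 5.604 and 6.30 CPM in BMFA3 cells, and at 39.4, 42.7 and 45.1 CPM in parental cells (4.30-fold lower than in BMFA3 cells). Mcm3 and Mcm4, parts of the replication helicase, were 1.86-fold and 1.82-fold lower, and Ccnd1, cyclin D1, was 2.00-fold lower. The cell cycle inhibitors of the Ink4 locus on chromosome 4, Cdkn2a and Cdkn2b, were 2.18-fold and 2.85-fold higher, with Cdkn2b at 304 and 332 CPM in CT1BA5 cells, against 114 and 109 CPM in BMFA3 cells. Glycolysis and hypoxia genes were lower for 19 of 34 tested members and higher for 2, or 1 without BMFA3 replicate 2, and cholesterol and fatty acid synthesis genes lower for 19 of 33 and higher for 3. Slc16a1, the lactate transporter MCT1, stood at 63.5 and 68.1 CPM in CT1BA5 cells, against 528 and 535 CPM in BMFA3 cells, and at 149, 164 and 163 CPM in parental cells (8.09-fold lower than in BMFA3 cells, edgeR, Benjamini-Hochberg adjusted p = 2.05e-16). Within the glycolysis and hypoxia list, Ldha, lactate dehydrogenase, and Pkm, pyruvate kinase, were not called, at log2 fold changes of -0.0026 and 0.0015. With the length correction 23 members of that list were lower and 3 higher, and Ldha was among those called lower (-0.18, edgeR, Benjamini-Hochberg adjusted p = 0.00882).

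Genes of protein folding in the endoplasmic reticulum and of the ATF4 stress pathway were higher for 23 of 35 tested members and lower for 4 (median 0.49). Atf4, the transcription factor at the centre of the pathway, stood at 152 and 175 CPM in CT1BA5 cells, against 94.5 and 102 CPM in BMFA3 cells, and Trib3, a pseudokinase it induces, at 21.8 and 24.1 CPM in CT1BA5 cells, against 6.76 and 6.76 CPM in BMFA3 cells. Hspa5, the chaperone BiP, and Manf, a secreted chaperone, were 1.47-fold and 1.85-fold higher. Slc7a11, the cystine transporter, went the other way, at 1.81 and 1.95 CPM in CT1BA5 cells, against 7.80 and 7.62 CPM in BMFA3 cells. Among targets of the glucocorticoid receptor 13 of 19 were lower and 2 higher (median -0.52). Cebpd, Lcn2 and Mt1 are among these lower members and are also induced by inflammation. Mt1, a metallothionein that binds zinc and copper, stood at 145 and 177 CPM in CT1BA5 cells, against 413 and 412 CPM in BMFA3 cells, 2.57-fold lower, and Fkbp5, a co-chaperone of the receptor, at 126 and 122 CPM in CT1BA5 cells, against 62.0 and 65.3 CPM in BMFA3 cells, 1.94-fold higher.

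Targets of YAP and TEAD, which respond to cell tension, split into 11 higher and 10 lower of 23, with a median of -0.22, which was 0.22 with the length correction. Nuak2, a kinase of actomyosin control, stood at 151 and 147 CPM in CT1BA5 cells, against 26.7 and 27.4 CPM in BMFA3 cells (5.53-fold higher), and Crim1, a BMP-binding membrane protein, was 2.25-fold lower. Of the hyaluronan synthases, Has2 stood at 888 and 868 CPM in CT1BA5 cells, against 295 and 298 CPM in BMFA3 cells, and at 7.18, 5.68 and 5.25 CPM in parental cells, while Has1 was 3.05-fold lower. Of 13 tested prostaglandin genes 4 were higher and 4 lower, or 2 and 4 without BMFA3 replicate 1. The share of tested prostaglandin genes called was 61.5%, against 50.8% of all genes tested. Ptger3, a receptor for prostaglandin E2, stood at 0.194 and 0.0779 CPM in CT1BA5 cells, against 15.3 and 14.8 CPM in BMFA3 cells, with a log2 fold change of -6.66, or -7.45 without CT1BA5 replicate 1. Slco2a1, a prostaglandin carrier, stood at 40.7 and 36.4 CPM in CT1BA5 cells, against 233 and 241 CPM in BMFA3 cells (6.14-fold lower). Among ion channels, Kcnn4, a calcium-activated potassium channel, stood at 52.2 and 50.8 CPM in CT1BA5 cells, against 5.73 and 4.57 CPM in BMFA3 cells (9.95-fold higher). Piezo2 was 6.78-fold higher and its relative Piezo1, both channels opened by stretch, 1.53-fold lower.

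Of 58 tested developmental transcription factors 14 were higher and 19 lower, or 8 and 16 without BMFA3 replicate 1. The share called, 56.9%, was near the 50.8% of all genes tested. Higher ones included Runx1, known from blood formation and fibrosis, at 126 and 105 CPM in CT1BA5 cells, against 66.3 and 61.7 CPM in BMFA3 cells, and at 5.34, 9.82 and 11.2 CPM in parental cells. Foxf2, a factor of gut mesenchyme, and the homeobox genes Hoxa3, Hoxa4 and Hoxa5 were 2.70-fold, 1.84-fold, 2.56-fold and 1.58-fold higher. Osr1 and Sox5, factors of connective tissue and cartilage, were 4.85-fold and 3.30-fold lower. Adhesion genes of epithelia and desmosomes showed 6 of 20 higher and 9 lower. N-cadherin (Cdh2) stood at 145 and 138 CPM in CT1BA5 cells, against 411 and 419.9 CPM in BMFA3 cells (2.93-fold lower), and plakoglobin (Jup), which links cadherins to the skeleton of the cell, at 317 and 310.0 CPM in CT1BA5 cells, against 138 and 144 CPM in BMFA3 cells (2.23-fold higher).

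Several of the largest differences fell outside the pathways above. Olfm2, a secreted olfactomedin protein induced by TGF-beta in smooth muscle, stood at 232 and 228 CPM in CT1BA5 cells, against 3.29 and 4.64 CPM in BMFA3 cells, 58.3-fold higher (log2 fold change 5.87 ± 0.11 (SE), edgeR, Benjamini-Hochberg adjusted p = 6.71e-18). C1qtnf3, a secreted C1q-related protein, stood at 24.2 and 25.8 CPM in CT1BA5 cells, against 0.122 and 0.133 CPM in BMFA3 cells, and Prr9, a proline-rich protein gene, at 25.4 and 29.98 CPM in CT1BA5 cells, against 0.122 and 0.199 CPM in BMFA3 cells. Fgf21, a hormone-like growth factor of metabolic stress, stood at 11.6 and 12.7 CPM in CT1BA5 cells, against 0.183 and 0.199 CPM in BMFA3 cells. Among genes lower in CT1BA5 cells, Ddx4, an RNA helicase known from germ cells, stood at 0.518 and 0.623 CPM in CT1BA5 cells, against 74.3 and 73.2 CPM in BMFA3 cells, and at 85.4, 82.2 and 84.5 CPM in parental cells. It was 128-fold lower (log2 fold change -7.01 ± 0.15 (SE), edgeR, Benjamini-Hochberg adjusted p = 1.73e-17). The BMFA3 libraries lay slightly below the parental ones. Cp, the copper protein ceruloplasmin, averaged 1.43 ± 1.36 CPM in CT1BA5 and 102 ± 2.99 CPM in BMFA3 cells (SD, n = 2 each), with a log2 fold change of -6.07, or -7.75 without CT1BA5 replicate 1 and -5.41 without CT1BA5 replicate 2. Gdpd2, a membrane phosphodiesterase, stood at 2.07 and 1.56 CPM in CT1BA5 cells, against 40.4 and 42.1 CPM in BMFA3 cells, and at 5.43, 4.44 and 5.74 CPM in parental cells (22.4-fold lower than in BMFA3 cells). C1qtnf7, a relative of C1qtnf3, stood at 1.16 and 0.701 CPM in CT1BA5 cells, against 22.5 and 21.7 CPM in BMFA3 cells, and at 0.920, 0.873 and 0.883 CPM in parental cells. In both genes the BMFA3 libraries lay far above the parental ones, and for Gdpd2 the CT1BA5 libraries lay below them.

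On GRCm38 the genes followed most closely were Tgfb1 (ENSMUSG00000002603, chr7:25687002-25705077, + strand), Inhba (ENSMUSG00000041324, chr13:16011851-16031621, + strand), Tnc (ENSMUSG00000028364, chr4:63959785-64047015, - strand) and Mmp9 (ENSMUSG00000017737, chr2:164940780-164955850, + strand). Those lower in CT1BA5 cells were Saa3 (ENSMUSG00000040026, chr7:46711998-46715700, - strand), C3 (ENSMUSG00000024164, chr17:57203970-57228136, - strand), Il1r1 (ENSMUSG00000026072, chr1:40225080-40317257, + strand), Sema3c (ENSMUSG00000028780, chr5:17574281-17730268, + strand), Il6st (ENSMUSG00000021756, chr13:112464070-112510086, + strand) and Upk3b (ENSMUSG00000042985, chr5:136038496-136046487, + strand).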

How the data were processed

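RNA sequencing read counts per gene of 7 libraries were used as deposited in 1 table of whole-number counts with Ensembl gene IDs; every one of its sample columns was used. Per the submitters' processing notes the authors used CASAVA, DESeq2 1.24.0 and the build mm10, without stated roles. Not given in the sources used here are the aligner, the counter and whether reads were counted by strand. A gene that overlaps another on the opposite strand, such as Cp, Adamts9, Nid2, Pdgfa, Gata6 and Tagln, and a member of a set of near-identical copies therefore has an uncertain share of reads.

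Names, coordinates and transcript lengths came from GENCODE M21 (GRCm38), which held 54495 of 54532 IDs. Genes were tested in R 4.3.3 with the quasi-likelihood test of edgeR 4.0.16 in a fit of all 7 libraries by group, after TMM scaling and edgeR's expression filter at a minimum count of 10 (13784 genes, with 99.9% of counts). P-values were adjusted by Benjamini-Hochberg over all genes tested, and a gene was called below 0.05. The test for changes of more than 2-fold was edgeR's glmTreat. DESeq2 1.42.0 and limma 3.58.1 served as alternatives. The test was checked on simulated counts.

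The comparison and the gene lists were chosen with earlier results of these data known, so no list counts as independent support. Named genes were the 15 highest and 15 lowest log2 fold changes with at least 10 CPM in the higher group, the 10 largest gains and losses in CPM, the 4 smallest p-values of each list, and a fixed list. Other members of lists were added as examples after their values were seen. The counts of a list cover its members that passed the expression filter, which is why they are given as members tested. The length correction, which offsets each library by a smooth curve of level on transcript length, was chosen after seeing the data. Intervals on ratios of counts are exact at 95% and cover counting error only. Both comparisons with parental cells share the parental libraries.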

Additional observations from a re-analysis of the deposited data

Results flagged for a closer look

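The change from parental cells ran in opposite directions in the tumour groups for 37 of the 259 genes named by rule, each called in both comparisons with parental cells and more than 2-fold different between CT1BA5 and BMFA3 cells (edgeR, Benjamini-Hochberg adjusted p below 0.05). These comparisons share the parental libraries. The same held for 144 of all 13784 genes tested (1.04%), or 16.5% of the 875 genes more than 2-fold different, against 22.7% of the 163 such genes named, many of which were chosen for the size of that difference. In 29 genes CT1BA5 cells were below and BMFA3 cells above parental cells, and in 8 it was the other way round. Some changes from parental cells were small, such as log2 fold changes of 0.18 for Meis2 in BMFA3 cells and 0.34 for Wnt9a in CT1BA5 cells. That of Ptger3 in CT1BA5 cells rested on 3 and 1 counts (edgeR, Benjamini-Hochberg adjusted p = 0.0301). The comparisons with parental cells were made with TMM scaling alone, so the direction of small changes may depend on it. The values that follow are log2 fold changes of CT1BA5 over BMFA3 cells.

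Among the 29, inflammatory and iron or metal genes were Saa3 at -7.41, Il33 at -4.48, Il1r1 at -3.19, C3 at -3.03, Vcam1 at -1.86, Iigp1 at -1.31, Cp at -6.07, Fth1 at -1.68, Mt1 at -1.36 and Slc39a10 at -1.34. Signalling and guidance genes were Ptger3 at -6.66, Inhbb at -3.06, Gdf10 at -1.61, Sema3a at -2.68, Slit3 at -2.55, Efnb2 at -1.60 and Meis2 at -1.57. Matrix and adhesion genes were Chl1 at -7.05, Adamts9 at -4.72, Lama4 at -3.78, Adamts5 at -2.19, Sdc4 at -1.29 and Itga7 at -1.21. Transport and metabolic genes were Gdpd2 at -4.49, Slc16a1 at -3.02, Slco2a1 at -2.62, Car12 at -2.19, Mgst1 at -1.99 and Vldlr at -1.28. The fit of Ptger3 gave -7.45 without CT1BA5 replicate 1, and that of Cp -7.75 without CT1BA5 replicate 1 and -5.41 without CT1BA5 replicate 2. Chl1, a neural adhesion molecule, had few counts in CT1BA5 cells, and its ratio of counts was 143 (95% exact interval 48.5 to 693).

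The 8 genes that were above parental cells in CT1BA5 and below them in BMFA3 cells were the potassium channel Kcnn4 at 3.32, Wnt9a at 2.27, the chloride channel Ano1 at 2.07, Pdgfc at 2.06, Trib3 at 1.76, the drug transporter Abcb1a at 1.72, the adhesion molecule Mcam at 1.72 and the cell death gene Pmaip1 at 1.49.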

How the results depend on the processing

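Against 3521 genes higher and 3487 lower, a test for changes of more than 2-fold called 370 and 505. Leaving out 1 library at a time gave 2724 to 3513 higher and 2803 to 3524 lower, where a lone library is assumed to vary like the other groups. Total counts alone gave 2371 higher and 4740 lower, 33.3% higher among the genes called in place of 50.2%, with the median of all genes at -0.16. The length correction gave 3522 higher and 2980 lower, of which 5453 were called without it and 23 of these had the opposite direction. Of the 259 named genes, 0 reversed under the settings tried, and 95 did not pass the 2-fold test. Other calls lost, each under at least 1 setting, were those of H2-Ab1, Spp1, mt-Nd1, Hspa4l, Pappa, Cd14, Egfl7 and Erbb3, and Il6 passed under 3 settings; the cause was not tested.

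The replicate numbers were also entered as a replicate block. Same-numbered CT1BA5 and BMFA3 libraries deviated from their groups with a correlation of 0.0769 across genes, and those of parental cells with -0.0727 for CT1BA5 and -0.0803 for BMFA3. A correlation over all genes cannot decide whether equal numbers shared a day, animal or batch, which the labels do not state. The block gave 3236 higher and 3242 lower, 6461 of them called without it, and changed the call of 0 named genes.

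There were 2 libraries a group, and the labels do not state which tumours or animals they came from. Genes under the count filter were not tested, and fold changes of genes with 0 to 3 counts in a group depend on depth.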

Other observations

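Detoxification genes, a list of phase I and II enzymes and NRF2 targets, were lower in CT1BA5 than in BMFA3 cells for 14 of 28 tested members and higher for 6, with a median log2 fold change of -0.27. Aldh3a1, an aldehyde dehydrogenase, had 0 counts in CT1BA5 and 112 in BMFA3 cells, at least 33.5-fold lower with 3 counts as the CT1BA5 floor. Hmox1, the haem oxygenase that NRF2 induces, was higher, at a log2 fold change of 0.79. Several genes close to absent in BMFA3 cells were present in CT1BA5 cells. Arg1, an arginase, had 126 counts in CT1BA5 and 2 in BMFA3 cells, a ratio of 70.1 (95% exact interval 19.02 to 585.5). Ccl17, a chemokine for T cells, had 137 counts in CT1BA5 and 2 in BMFA3 cells, a ratio of 76.3. Lamb3, a chain of the epithelial laminin 332, had 89 counts in CT1BA5 and 0 in BMFA3 cells, at least 33.0-fold higher, and Pkp1, a desmosome protein, had 107 in CT1BA5 and 0 in BMFA3 cells, at least 39.7-fold higher. Lef1, a transcription factor of the Wnt pathway, had 34 counts in CT1BA5 and 0 in BMFA3 cells, at least 12.6-fold higher.

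Genes more than 2-fold different lay side by side in 11 places, taken as 3 or more consecutive tested genes that moved in 1 direction. Besides the Cxcl genes, these held the guanylate-binding protein genes Gbp9, Gbp4, Gbp10 and Gbp6 between bases 105077630 and 105293698 of chromosome 5 (GRCm38), with log2 fold changes of -1.96, -2.61, -6.34 and -2.22. These proteins are induced by interferon, and as close relatives on 1 chromosome they may share reads. The genes Moxd1, Ccn2 and Enpp1 lay between bases 24223517 and 24712159 of chromosome 10 and were higher. The late cornified envelope genes Lce1f, Lce1g and Lce1h on chromosome 3 were higher too, at means of 4.23, 3.74 and 1.35 CPM in CT1BA5 and 0.310, 0.0994 and 0.191 CPM in BMFA3 cells.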
